A study of Mus musculus with 11 samples.

Results

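Eda, Efhc2, Fgf13, Il1rapl1 and Il1rapl2 are X-linked genes of the mouse that carried many peaks of the chromatin protein Smchd1 in sonicated chromatin of female neural stem cells. They were chosen by the number of sonication peaks in the gene or within 5 kb of it: apart from the dystrophin gene Dmd, with 18 peaks, they were the X-linked members of a list of the 10 genes with the most such peaks. The 5 genes held or adjoined 30 of the 2196 sonication peaks, and 29 of these overlapped the gene itself. The peak counts are therefore a description, and no test was made of them. Fgf13 and Il1rapl2, with 4 peaks each, stood at the edge of the choice. Of the other genes with 4 peaks, Csmd1 and Hoxa10 were on the same list, while Pola1 and Tex11, both on the X, and the predicted genes Gm38462 and LOC115489112 were among those that were not, and 29 genes had 3.

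The 11 libraries came from neural stem cell lines derived from C57BL/6 embryos at embryonic day 14.5 and grown for up to 20 passages. Cells were either homozygous for an allele that fuses GFP to Smchd1 (Smchd1 GFP/GFP) or wild-type, and both were cross-linked with formaldehyde and pulled down with an antibody to GFP. The sonication experiment (6 libraries, all female) had 2 Smchd1 GFP/GFP, 2 wild-type and 2 whole cell extract libraries. The experiment with micrococcal nuclease, MNase, which cuts between nucleosomes (5 libraries), had 1 male and 1 female library each of Smchd1 GFP/GFP and wild-type cells and 1 female whole cell extract library. Each experiment was deposited as 1 pooled list of peak positions with no height, score or value per library, so neither the depth of a library nor the spread between replicates was known for any peak. In female cells the positions do not tell the inactive from the active X.

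Smchd1 is a non-canonical member of the SMC family, whose proteins shape the folding of chromosomes, and it is known for its part in keeping genes silent on the inactive X of female cells. The inactive X is folded into compact heterochromatin. Sonication here lasted 30 minutes. Eda encodes ectodysplasin, a signal of the tumour necrosis factor family that is needed for hair, teeth and sweat glands and is mutated in tabby mice. Il1rapl1 and Il1rapl2 are paralogs that encode receptors of the interleukin-1 receptor family found at synapses. Fgf13 encodes a fibroblast growth factor homologous factor, an intracellular protein that binds sodium channels and microtubules. Efhc2 encodes an EF-hand protein of the cilium.

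No sonication peak lay at an annotated transcription start of the 5 genes. The RefSeq promoter table (build GRCm38.p6, which shares its chromosome coordinates with mm10) listed 8 starts for them, 4 of which belonged to Fgf13. The nearest peak was 14.9 kb from one of the inner starts of Fgf13, and at the outermost starts the distance ran from 20.7 kb for Fgf13, to a peak upstream of the gene, to 156 kb for Eda. The 250 bases before the outermost start of each gene are shown because these are the places where the peaks were absent and because they differ in kind. They are written 5′ to 3′ on the strand of the gene, credited to RefSeq, with each CG in capitals.
Eda, chrX:99975356-99975605, plus strand: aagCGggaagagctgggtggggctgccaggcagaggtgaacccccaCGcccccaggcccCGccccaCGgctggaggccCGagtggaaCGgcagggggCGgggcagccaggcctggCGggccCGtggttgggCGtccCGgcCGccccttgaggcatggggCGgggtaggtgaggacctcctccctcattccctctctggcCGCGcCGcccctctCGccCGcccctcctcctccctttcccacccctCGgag
Efhc2, chrX:17319942-17320191, minus strand: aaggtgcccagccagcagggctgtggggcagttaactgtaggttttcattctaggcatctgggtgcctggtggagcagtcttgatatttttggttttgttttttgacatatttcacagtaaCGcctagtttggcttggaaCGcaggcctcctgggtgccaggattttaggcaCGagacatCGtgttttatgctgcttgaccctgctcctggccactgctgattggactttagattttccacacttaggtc
Fgf13, chrX:59585573-59585822, minus strand: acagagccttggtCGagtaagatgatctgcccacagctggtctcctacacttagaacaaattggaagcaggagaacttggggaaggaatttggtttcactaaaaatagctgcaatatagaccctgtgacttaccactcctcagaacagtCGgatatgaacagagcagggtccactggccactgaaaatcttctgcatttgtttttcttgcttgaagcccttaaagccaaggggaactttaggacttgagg
Il1rapl1, chrX:88115949-88116198, minus strand: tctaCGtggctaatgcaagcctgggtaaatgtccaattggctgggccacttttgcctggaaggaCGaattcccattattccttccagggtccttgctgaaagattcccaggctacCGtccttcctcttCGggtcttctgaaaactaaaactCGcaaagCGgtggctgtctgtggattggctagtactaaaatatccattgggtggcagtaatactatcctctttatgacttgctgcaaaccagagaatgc
Il1rapl2, chrX:137570504-137570753, plus strand: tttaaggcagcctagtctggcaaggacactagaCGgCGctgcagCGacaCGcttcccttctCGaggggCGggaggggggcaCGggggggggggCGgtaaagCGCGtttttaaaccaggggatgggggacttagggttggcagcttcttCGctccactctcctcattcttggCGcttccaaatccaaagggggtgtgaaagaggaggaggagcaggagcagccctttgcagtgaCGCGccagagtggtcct

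The motif CG, which reads the same on both strands, was found 19 times before Eda and 14 times before Il1rapl2. It was found 6 times before Il1rapl1, 4 times before Efhc2 and 2 times before the outermost start of Fgf13. Over the 960 windows of the same length before coding X genes the median was 6, and 90.6% of them held at least 1. The inner starts of Fgf13 differed among themselves, with 33, 6 and 31 CG in the 250 bases before them. None of the 8 windows overlapped a sonication peak. The 5 genes thus spanned CG-rich and CG-poor starts. Peaks covered from 0.116% (Il1rapl2) to 0.985% (Efhc2) of a gene window, so the lack of overlap says little about either kind. For the X as a whole, 30 of 549 sonication peaks (5.46%) came within 5 kb of a listed start of any gene, while 0 of the 30 peaks at the 5 genes did. With so low a share on the X, the 0 is not read as a trait of these genes.

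**Figure D1:**
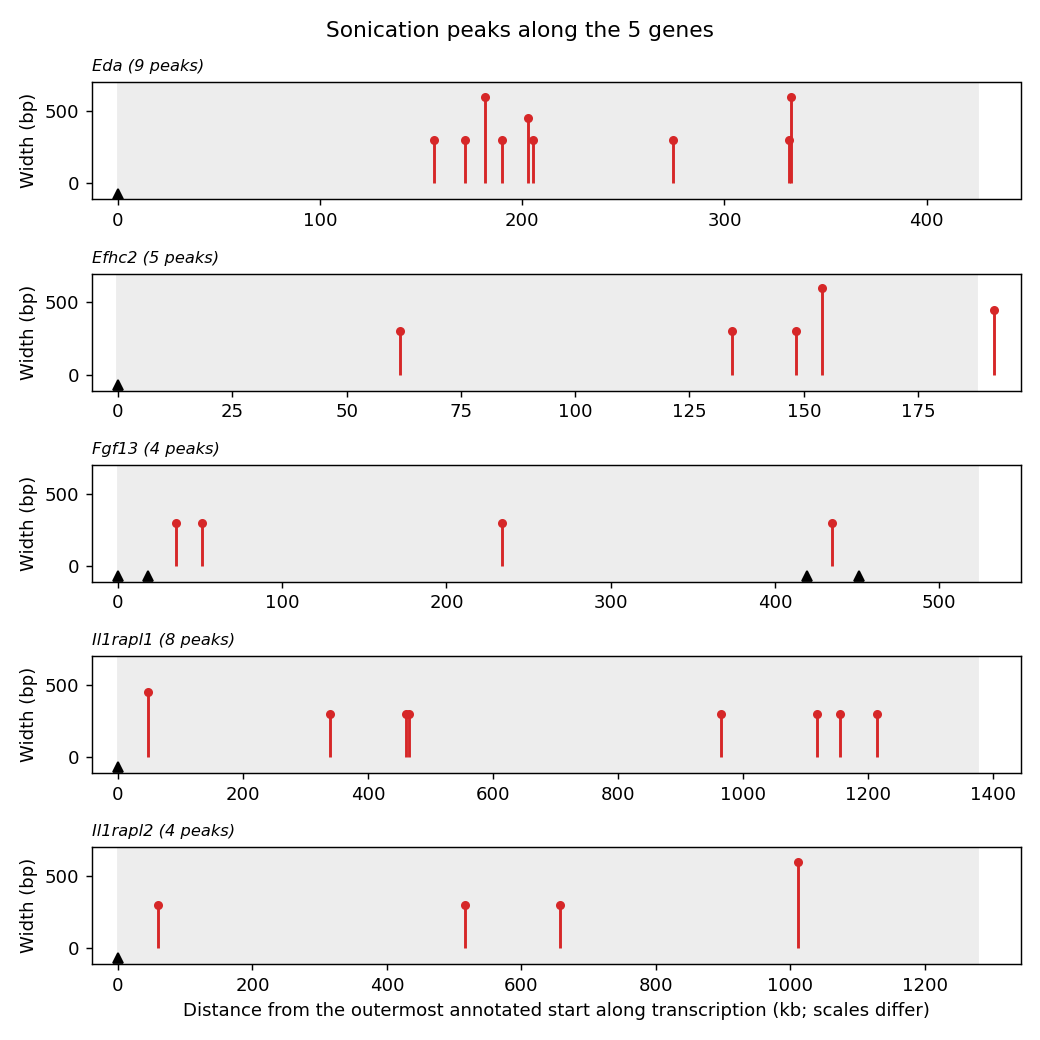
Sonication peaks along each gene, by distance in kb from its outermost annotated start in the direction of transcription (horizontal axis, with its own scale in each panel) and by peak width in bp (vertical axis). Grey marks the annotated span and black triangles the annotated starts. The first peak of Eda lies 156 kb into the gene, and the last peak of Efhc2 lies just beyond its far end.

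Eda had 9 sonication peaks, the most of the 5 genes. Its span runs from 99975606 to 100400760 on X in mm10, over 425 kb on the plus strand. The first 156 kb had none. Then 6 peaks followed within 49.7 kb, from 100131601 to 100181250, which is 36.7% to 48.3% of the way from the start. Their starts were 100131601, 100147351, 100156651, 100165651, 100178101 and 100180951. The third of these was 600 bp wide, the fifth 450 bp and the others 300 bp, the smallest width in the list. Further on, single peaks of 300 bp began at 100249951 and 100307401, and the last, of 600 bp and only 450 bp beyond its neighbour, began at 100308151.

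The group of 6 in Eda was the densest on the chromosome by this measure. No stretch of 50 kb on the X held more than 6 sonication peaks, and the one in Eda was the only stretch with 6. Only this length was used, and the group, at 49.7 kb, just fits within it. Its peaks belong to the count that chose Eda, so its place is a description. The remaining 3 peaks of Eda gave 7.78 per Mb over the rest of its window. Merging peaks no more than 10 kb apart left 5 in Eda. No annotated gene other than Eda overlapped any of its peaks. The microRNA gene Mir676 and the pseudogenes Gm14829 and Gm14828, which lie within Eda toward its far end, had 0.

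Efhc2, the shortest of the 5 genes with 188 kb, had 5 peaks and the highest density when counted with 5 kb on each side. It runs from 17132049 to 17320049 on the minus strand, so that its start is at the higher coordinate. In the order of transcription, peaks of 300 bp began at 17258101, 17185501 and 17171401, and one of 600 bp at 17165551. The fifth peak, of 450 bp, from 17128201 to 17128650, was beyond the far end of the gene and counted only through the 5 kb added on each side. In the gene span alone Efhc2 had 4 peaks over 188 kb and Eda 9 over 425 kb. The lead of Efhc2 over Eda in density thus rested largely on the fifth peak. The middle 3 peaks of Efhc2 lay close together, with gaps of 13.8 and 5.25 kb between them, and no peak came within 61.5 kb of its start. The peak that began at 17258101 also overlapped Gm35105, a long non-coding RNA gene, and was the only one of the 30 to overlap a second annotated gene.

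Fgf13 had 4 peaks, all of the smallest width, 300 bp. Its span covers 523 kb from 59062139 to 59585572 on the minus strand. A pair of peaks, at 59550301 and 59534101, lay 35.1 and 51.3 kb into the gene, downstream of both starts at its beginning. The other 2, at 59351851 and 59150851, were 234 and 435 kb from the outermost start. The last of these fell between the inner starts, 14.9 kb downstream of the one at 59166088 and 16.4 kb upstream of the one at 59134436. The microRNA gene Mir504, which lies near the far end of Fgf13, had 0 peaks, and so did Gm36570, Gm39518 and the pseudogenes within its span.

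Il1rapl1 had 8 peaks spread over most of a span of 1375 kb, from 86740937 to 88115948 on the minus strand. The first in the order of transcription, of 450 bp, began at 88067551, 48.2 kb into the gene. The other 7 were 300 bp wide. Of these, 3 began at 87776851, 87655651 and 87650401, and after a gap of 499 kb the last 4 began at 87150901, 86998201, 86960851 and 86901601. The peaks thus formed a group of 4 in the first part of the gene and a group of 4 toward its far end. Within the span, 5 pseudogenes had 0 peaks.

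Il1rapl2, the paralog, covers 1278 kb from 137570754 to 138849077 on the plus strand and had 4 peaks. They began at 137629501, 138086551, 138227551 and 138582301, and the last was 600 bp wide and the others 300 bp. Neighbouring peaks were 141 to 457 kb apart, and no 50 kb of the gene held more than 1. The coding gene Tex13a, which lies within Il1rapl2, had 0. The paralogs were of like length, and Il1rapl1 had 8 peaks where Il1rapl2 had 4. This difference was not tested.

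The ratio of each gene to its surroundings ran from near 1 in Il1rapl1 to its highest value in Efhc2; differences between the genes were not tested. Counted over the gene with 5 kb on each side, Efhc2 had 25.3 peaks per Mb (95% exact Poisson interval 8.20 to 58.9), and the 1 Mb on each side beyond had 3.00 per Mb (1.10 to 6.53). Eda had 20.7 per Mb (9.46 to 39.3) and its flanks 5.50 (2.75 to 9.84). These intervals, and the others here, cover counting error only. Efhc2 and Eda were thus 8.42 and 3.76 times as dense as their flanks. With flanks of 500 kb the ratios were 12.6 and 2.30. The genes were chosen for many peaks, which favours ratios above 1.

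In the other 3 genes the ratio was lower. Fgf13 had 7.50 peaks per Mb (2.04 to 19.2) and its flanks 4.50 (2.06 to 8.54), a ratio of 1.67, which was 2.50 with flanks of 2 Mb. Il1rapl2 had 3.10 per Mb (0.846 to 7.95) against 2.50 (0.812 to 5.83), a ratio of 1.24. Il1rapl1 had 5.78 per Mb (2.49 to 11.4) and its flanks 6.00 (3.10 to 10.5), a ratio of 0.963. With flanks of 500 kb, the ratio of Il1rapl1 was 1.16, so no direction is given for it.

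**Figure D2:**
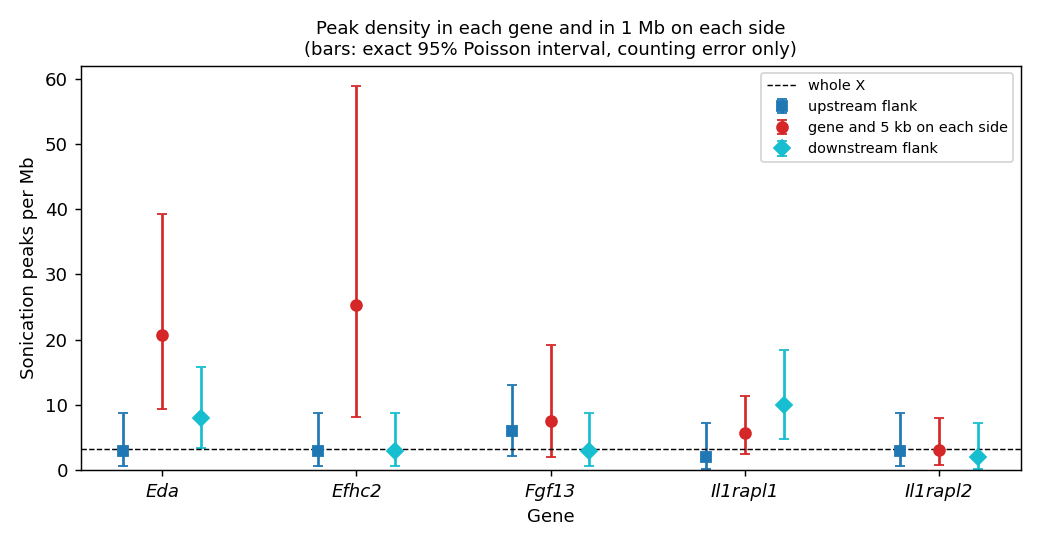
Sonication peaks per Mb (vertical axis) in each gene with 5 kb on each side, and in the 1 Mb upstream and downstream of that window, with exact 95% Poisson intervals that cover counting error only. The dashed line marks the X as a whole, 3.27 peaks per Mb. The values of Eda and Efhc2 stand above those of both flanks, while Il1rapl1 lies between its flanks. The interval of Eda overlaps that of its downstream flank, and the interval of Efhc2 overlaps those of both flanks.

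Together the 5 genes had 7.81 peaks per Mb (5.27 to 11.2) and their flanks, with 43 peaks in 10 Mb, had 4.30 per Mb (3.11 to 5.79). The ratio was 1.82. Choosing genes with many peaks favours a ratio above 1 but does not fix it, so the ratio is given as a description. Without Eda and Efhc2 it was 1.15, an alternative chosen after seeing the data. Among peaks wider than 300 bp it was 1.07, with 7 peaks in the genes and 17 in the flanks. The genes held 5.46% of the X peaks on 2.29% of the X length, and the choice of the genes favoured the larger share of peaks.

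The flanks of a gene were not alike. Downstream of Il1rapl1, on the side of Dmd, 1 Mb held 10 peaks, and the 1 Mb upstream held 2. Eda had 8 peaks in the 1 Mb downstream and 3 upstream. Of the 8, 4 lay at Tex11, a gene of meiotic recombination that itself had 4 peaks. Fgf13 had 6 peaks upstream and 3 downstream, Il1rapl2 3 and 2, and Efhc2 3 on each side. The nearest coding genes on both sides had few: 1 peak each at Awat2, Fundc1, F9 and Nrk and 0 at Tmem28, Ndp, 4930550L24Rik, Mageb4, Gm52437 and Esx1.

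**Figure D3:**
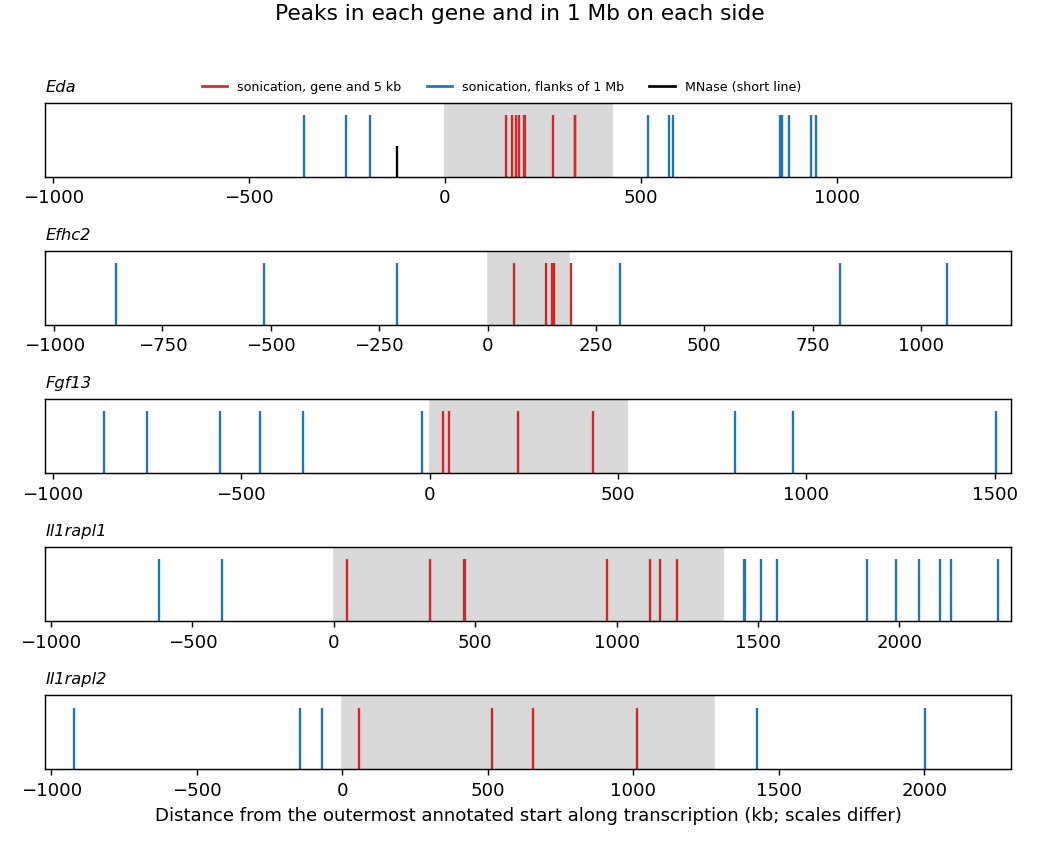
Peaks in each gene (red) and in the 1 Mb on each side (blue), by distance in kb from the outermost annotated start in the direction of transcription, with the gene span in grey. The single MNase peak in these regions, upstream of Eda, is the short black line. Peaks are more frequent downstream than upstream of Il1rapl1, 10 against 2.

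Long genes have more room for peaks, so the 5 were set beside the other long genes of the X. In the RefSeq table, 50 coding X genes were at least as long as Efhc2. At least 1 peak was found at 36 of these 50 (72%) and at least 4 at 9 (18%); among all 963 coding X genes the shares were 13.6% and 0.935%. Over all 21523 coding genes of the autosomes and the X, 3.42% had a peak and 0.0604% had at least 4. By their count, the 5 genes ranked from 2 to a tie at 5 among the 50, after Dmd, and that tie also took in Tex11 and Pola1, which encodes the catalytic subunit of DNA polymerase alpha. These ranks follow from how the genes were chosen.

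Per length, the order among the 50 genes was another. Counted with 5 kb on each side, Efhc2 ranked 1 and Eda 2, while Fgf13 ranked 14, Il1rapl1 18 and Il1rapl2 29. The other 45 genes together had 4.46 peaks per Mb, with a median of 3.83 and a highest value of 17.3, in Tex11. Hdac8 with 13.0 per Mb and Pola1 with 11.8 were among those above Fgf13, though neither had more than 4 peaks. Ranks over so few peaks carry the wide intervals given above. Il1rapl2 was below the 3.27 per Mb of the whole X, and its place among the genes with many peaks went with a span of 1278 kb.

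The genes nearest in density to the median of the 5, 7.50 per Mb, were Dmd, Nhsl2 and Hs6st2, with 7.50, 7.91 and 6.56 per Mb over the 50 long genes. Dmd, with 18 peaks over 2390 kb, had the same density as Fgf13 with 4 over 523 kb. The flanks of Dmd were denser than the gene, with 12.5 per Mb. Of the 50 long genes, 28 (56%) had more peaks per Mb than their flanks, and 4 of the 5 genes described here did. A gene without a peak could not, so the 28 were all among the 36 long genes with at least 1 peak. The 5 were chosen for many peaks, which favours the higher share. Long genes on the autosomes were far sparser. There, 238 of 1031 genes of this length (23.1%) had a sonication peak, at 0.745 per Mb, and none had more than 5.

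**Figure D4:**
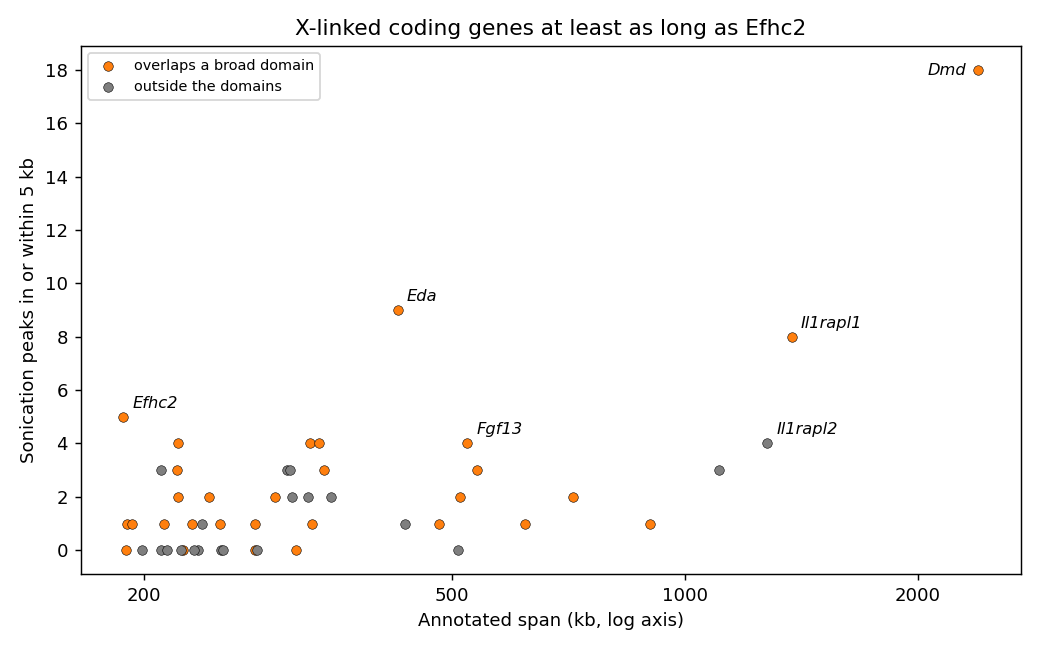
Sonication peaks in or within 5 kb of each of the 50 coding X genes at least as long as Efhc2 (vertical axis) by annotated span in kb (horizontal log axis). Genes that overlap a broad domain are orange and the others grey. Il1rapl2 is the only one of the 5 named genes outside the domains, and among the grey points it has the most peaks.

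Broad domains of enrichment, which the authors deposited as a separate list, held 4 of the 5 genes whole; of the 50 long X genes 30 (60%) overlapped a domain, and of all coding X genes 55.2% did. Domain boundaries fell on a grid of 55 kb. Efhc2 lay in a domain of 11.3 Mb from 13475001 to 24805000, 3.66 Mb from its lower edge. Fgf13 and Il1rapl1 shared the domain of 39.9 Mb from 54945001 to 94875000, and Eda lay in the next, of 29.6 Mb from 94985001 to 124630000. None of the 4 was within 3 Mb of a domain edge.

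Il1rapl2 was the exception. It lay between domains, 3.81 Mb above the end of one at 133760000 and 8.50 Mb below the start of the next at 147345001. All 4 of its peaks were outside the domains, and it had the most peaks of any long X gene there. The other 19 long genes outside domains had 20 peaks, and 10 of them had none. As the domains may come from the same reads as the peaks, place in a domain is not independent of the count.

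The density of each gene can be set beside that of its own domain, again with the choice of the genes favouring the higher value. Efhc2 had 25.3 peaks per Mb in a domain with 3.18, and Eda 20.7 in a domain with 5.36. Fgf13 with 7.50 and Il1rapl1 with 5.78 lay in a domain with 4.83, a value inside the counting interval of both genes. Il1rapl2, with 3.10, was in the part of the X outside domains, which had 1.65 per Mb as a whole. Of the 30 peaks, 26 (86.7%) were inside a domain, and of all X peaks 83.1% were. All peaks of a gene shared their place, so the 26 stand for 4 of 5 genes and not for separate observations.

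Peaks at the 5 genes were mostly narrow. Of the 30, 23 (76.7%) had the smallest width of 300 bp, and none exceeded 600 bp. The mean was 355 bp ± 108 (SD, 30 peaks), and the other 519 X peaks had a mean of 416 bp ± 179 (SD) and 57.0% of the smallest width. By gene, the mean width was 383 bp in Eda, 390 bp in Efhc2, 300 bp in Fgf13, 319 bp in Il1rapl1 and 375 bp in Il1rapl2. Widths move in steps of 150 bp. They come from the list that chose the genes and were not tested.

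In the MNase list, which was not used to choose the genes, no peak lay in or within 5 kb of any of the 5. Only 4 of 963 coding X genes (0.415%) had one, and the X held 10 MNase peaks in all. A count of 0 over the 3.84 Mb of the 5 gene windows allows up to 0.781 peaks per Mb, above the 0.0596 per Mb of the X and below the 1.18 per Mb of the autosomes. A density like that of the X as a whole was thus not detectable at these genes. The nearest MNase peak to Eda, from 99853351 to 99853650, was 122 kb away on the upstream side, within 5 kb of Tmem28. For Fgf13 the nearest was 1160 kb away and for Il1rapl1 1454 kb. For Il1rapl2 and Efhc2 it was 4634 and 11040 kb away. Of the long coding genes on autosomes, 28.2% had an MNase peak. Fragmentation and the sex of the cells both differ between the lists and cannot be told apart.

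Genes that work with the 5 or resemble them were counted in both lists. Of 29 such genes, 1 of them on the X, 4 (13.8%) had a sonication peak within 5 kb and 3 (10.3%) an MNase peak. Over all coding genes the shares were 3.42% and 5.35%. The related genes include some far longer than most genes, and their length was not adjusted for. In ectodysplasin signalling, the 7 genes had no peak in either list. They included the receptor gene Edar, its adaptor gene Edaradd and Eda2r, a second ectodysplasin receptor gene that is itself X-linked and lies from 97333837 to 97377234, in the same domain as Eda. Eda2r spans 43.4 kb and Eda 425 kb.

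Among the autosomal relatives of Fgf13 and the sodium channel genes, 1 of 7 had a sonication peak and 2 an MNase peak. Fgf12, which covers 595 kb on chromosome 16, had 1 of each: the sonication peak, of 450 bp, began at 28564201 inside the gene, and the MNase peak, also of 450 bp, lay 258 bp outside its boundary at 28753501. Fgf14, with 703 kb longer than Fgf13, had 0 in both lists. Scn2a, which encodes a neuronal sodium channel, had 1 MNase peak, 564 bp outside the gene. Fgf13, chosen for its count, had 7.50 sonication peaks per Mb, against 1.65 in Fgf12, from 1 peak, and 0 in Fgf14. Both relatives are autosomal, and the autosomes as a whole had 0.685 per Mb where the X had 3.27.

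In the interleukin-1 receptor family with its synaptic partners, 2 of 11 genes had a sonication peak and 1 an MNase peak. Il1rap, the autosomal relative from which both paralogs take their name, had 0 in both lists over 149 kb. Ptprd, the gene of a presynaptic phosphatase that binds Il1rapl1, had 2 of each. Its span is 2271 kb, and counted with 5 kb on each side it had 0.877 sonication peaks per Mb. Il18r1, an interleukin-18 receptor gene, had 1 sonication peak. Its span is 35.3 kb, and counted with 5 kb on each side this gave 22.1 per Mb. That value rests on a single peak in a short gene.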

How the data were processed

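Libraries were grouped by their titles. Per the submitters' processing notes, the tools were bcl2fastq, Bowtie 0.12.9 and MACS2 and the build mm10, with no role given. The authors deposited 1 pooled peak list per experiment. Its value column was empty, so only positions in bp were used, and no count or fold per library could be tested. The role of the control libraries in peak calling was not given in the sources used here. The score per domain that the authors deposited was not used.

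Gene spans and starts came from RefSeq tables (GRCm38.p6), which give no exons. Genes that start in the first 3 Mb of a chromosome were left out. All 5 genes and 29 related genes matched by symbol. A peak counted at a gene when it overlapped the span with 5 kb on each side by at least 1 bp, and flanks were the next 1 Mb. Counting was tested on simulated data (Python 3.11.15, pandas 2.3.3, scipy 1.17.1). Intervals are exact 95% Poisson intervals, and a count of 0 is given with a limit of 3 counts.

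The genes, lists and alternatives were chosen with earlier results of these data known. Named genes were the 5, long X genes with the most peaks or the nearest density, neighbours, and related genes with a peak. Csmd1, Hoxa10, Gm38462, LOC115489112, Hdac8 and related genes without a peak were named after their values were seen. Some genes that the rule selects are left unreported.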

Additional observations from a re-analysis of the deposited data

How the results depend on the processing

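The total of 30 sonication peaks stayed between 24 and 30 when peaks were counted in the gene span alone, with 20 kb on each side, by midpoint or after merging. Limiting the list to peaks wider than 300 bp left 7, lowered the ratio of genes to flanks from 1.82 to 1.07 and, by construction, raised the mean width from 355 to 536 bp; the cause of the lower ratio was not tested. The ratio was 1.63 with flanks of 500 kb, 1.88 with flanks of 2 Mb, 1.74 for the gene span alone, 1.52 after merging and 1.54 without Eda. For single genes, flanks of 500 kb gave 2.30 for Eda in place of 3.76 and 12.6 for Efhc2 in place of 8.42, and flanks of 2 Mb gave 2.50 for Fgf13 in place of 1.67. The count of 0 MNase peaks held with 50 kb on each side, and 1 Mb on each side brought in 1, near Eda. With peaks wider than 300 bp, Eda kept 3, Efhc2 2, Il1rapl1 and Il1rapl2 1 each and Fgf13 0. Shares inside domains ran from 85.7% to 86.7%. No paired analysis was possible because each experiment was deposited as 1 pooled list, and leaving out single libraries was not run for the same reason. Depth limits could not be assessed without reads per library.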
